A study of Homo sapiens with 14 samples.

Results

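RUNX1 with a premature stop codon was compared with intact RUNX1 in total RNA of OCI-AML2, a human cell line of acute myeloid leukaemia. Of the 14 libraries of the series, 6 carried this comparison and were picked by their library names. The mutant cells had the stop codon R174* on 1 RUNX1 allele and a wild-type second allele. They came from 2 lines, named F3 and G7, with 2 libraries each, numbered replicates 2 and 3. The wild-type cells were the parent line, intact on both alleles, with 2 libraries, numbered replicates 1 and 2. Another 4 libraries, 2 of F3 and 2 of the parent, were made by RiboLace, which pulls down RNA bound to active ribosomes, and gave a second reading of the F3 effect. The labels do not say whether F3 or G7 is a single clone, how the stop codon was introduced, or whether replicates were separate cultures. P-values therefore measure only the spread between these libraries, which may be technical. The mutant libraries are labelled as controls kept for 8 h and the parent libraries as untreated, while the library names give 0 h for all 6. Genotype and the control treatment cannot be told apart in total RNA. All 4 RiboLace libraries have the treatment label None. In both assays genotype also cannot be told apart from any other difference between the mutant lines and the parent line.

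RUNX1 is a transcription factor that binds DNA through its Runt domain, together with its partner CBFB, and both activates and represses genes of blood cell development. In myeloid cells it acts on genes of the granules that promyelocytes make, on growth factor receptors of monocytes and on genes of the cell cycle. A stop codon at R174 lies within the Runt domain and would leave a protein without the transactivation domain that follows it. Germline and acquired RUNX1 mutations are known from familial platelet disorder and from acute myeloid leukaemia.

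The 6 libraries held 19250789 to 21334260 read counts each, and 13447 to 13703 genes had at least 10 reads in each of them. Levels are given as CPM, read counts scaled to library size and composition. A gene counted as called at an adjusted p under 0.05 in edgeR's quasi-likelihood test with Benjamini-Hochberg adjustment over 13949 tested genes. The same 6 libraries gave a pooled reading and line readings. The pooled reading took F3 and G7 as 1 group of 4 against the parent, so that the difference between lines counted as error. The line readings set F3 and G7 each against the parent. The spread of log2 levels between libraries was 0.22 to 0.271 (SD over genes) within a line, 0.403 to 0.44 between F3 and G7, and 0.406 to 0.484 between a mutant line and the parent.

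The pooled reading called 636 genes, 4.56% of those tested, with 347 higher in the mutant (2.49%) and 289 lower (2.07%). F3 differed from the parent in 2518 genes (18.1%), with 1327 higher (9.51%) and 1191 lower (8.54%). G7 differed in 2467 (17.7%), with 1237 higher (8.87%) and 1230 lower (8.82%). Both lines were called in the same direction in 1085 genes (7.78%), of which 578 were higher than in the parent (4.14%) and 507 lower (3.63%). The pair of line readings share the parent libraries, so this count is not independent support for either. All 636 genes of the pooled reading were among the 1085. Protein-coding genes made up 610 of the 636. In 204 of the 1085 the difference reached at least 2-fold in both lines, with 132 higher and 72 lower. The lines themselves differed in 1743 genes (12.5%), of which 762 were higher in G7 than in F3 (5.46%) and 981 lower (7.03%). Among the 1085 shared genes that number was 218, with G7 further from the parent in 151 and F3 in 67. At the threshold of the pooled reading, ZNRF1 and SERINC5 were just inside at an edgeR adjusted p = 0.0498 each. The replication genes LIG1 (0.0501) and CHAF1A (0.0502) were just outside.

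The pooled count rested on both parent libraries. It was 43 without parent replicate 1 and 63 without parent replicate 2. The shared count fell to 514 without F3 replicate 2 and 689 without F3 replicate 3, which left the F3 line with a single library. Of 97 called genes that the naming rule chose, 79 kept their call in both lines when each of the 6 libraries was left out in turn. The pooled call was kept in all 6 of those fits by 20 genes, among them ELANE, PRTN3, DEFB1, MFAP4, HELZ2, MYL9, STAT5A and BST2 of the higher genes and C12orf75, ALOX5AP, LST1, FGR, MCEMP1, CD1D, CCND3, CXCL8, VAT1L and GINS2 of the lower ones. The line values are therefore given first for the genes that follow. Counts of list members are to be read beside the shares over all tested genes, 4.14% higher and 3.63% lower in both lines.

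**Figure D1:**
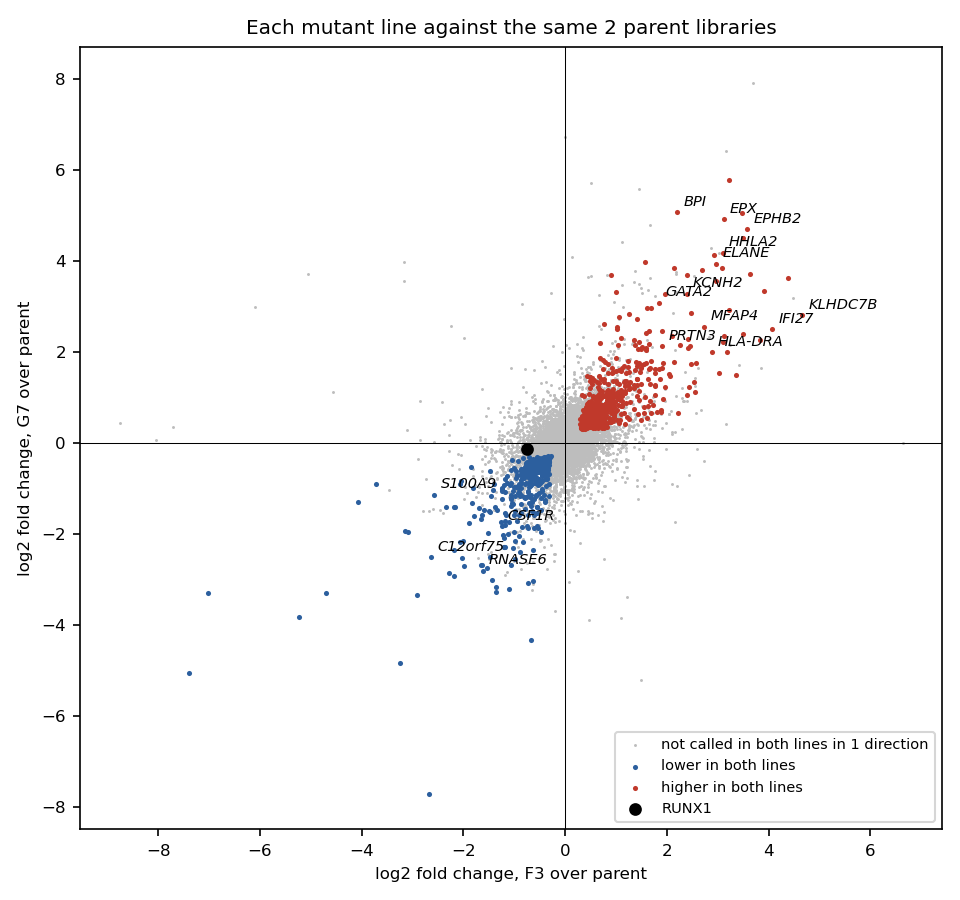
Log2 fold change of F3 over parent (horizontal axis) against that of G7 over parent (vertical axis) for 13949 genes, 1 point per gene, with the same 2 parent libraries in both. Red points are the 578 genes called higher in both lines, blue points the 507 called lower, grey points all others and the black point RUNX1. BPI and EPX lie higher on the G7 axis, and KLHDC7B and IFI27 further along the F3 axis.

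RUNX1 itself was lower than in the parent in F3, and its G7 reading did not pass the test. The gene (ENSG00000159216.18) lies on the minus strand of chromosome 21, GRCh38 positions 34787801 to 36004667. It had 75.4 and 78.8 CPM in F3 and 126 and 109 CPM in G7, against 134 and 124 CPM in the parent. The F3 libraries were below all others, while the range of G7 reached into that of the parent. The log2 fold change was -0.74 ± 0.11 in F3 (SE, edgeR adjusted p = 0.00015) and -0.14 ± 0.11 in G7 (adjusted p = 0.431), and G7 exceeded F3 by 0.61 ± 0.11 (adjusted p = 0.000942). Counts per gene do not tell the alleles apart, and transcripts with an early stop may be kept or degraded, so the level of RUNX1 gives no check of the genotype. In RiboLace RUNX1 stood at 144 and 142 CPM in F3 against 145 and 168 CPM in the parent (log2 fold change -0.13 ± 0.26, adjusted p = 0.796).

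The fall of RUNX1 in F3 came with lower counts across its chromosome. The median log2 fold change of the 138 tested genes of chromosome 21 was -0.36 in F3 and 0.07 in G7. The medians of the other nuclear chromosomes ran from -0.10 to 0.07 in F3. Of the 138 genes, 113 were below 0 in F3 and 56 in G7. F3 had 53 of them called lower and 3 higher, and G7 had 8 lower and 14 higher. By library, the chromosome 21 median over the parent mean was -0.281 and -0.344 in the F3 libraries, and 0.107 and -0.002 in the G7 libraries. In the reading of G7 over F3, 63 of the 138 were called higher and 3 lower. RUNX1 fell further in F3 than the median of its chromosome, at -0.74 against -0.36, and 23 of the 138 genes fell further than RUNX1. In RiboLace 62 of 86 tested chromosome 21 genes were below 0 in F3 over parent, with a median of -0.242. DNA copy number was not analysed here, and its part in these values was not tested. Chromosome 21 added little to the shared genes, with 2 higher and 5 lower in both lines, and the shared count was 1070 without its genes.

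**Figure D2:**
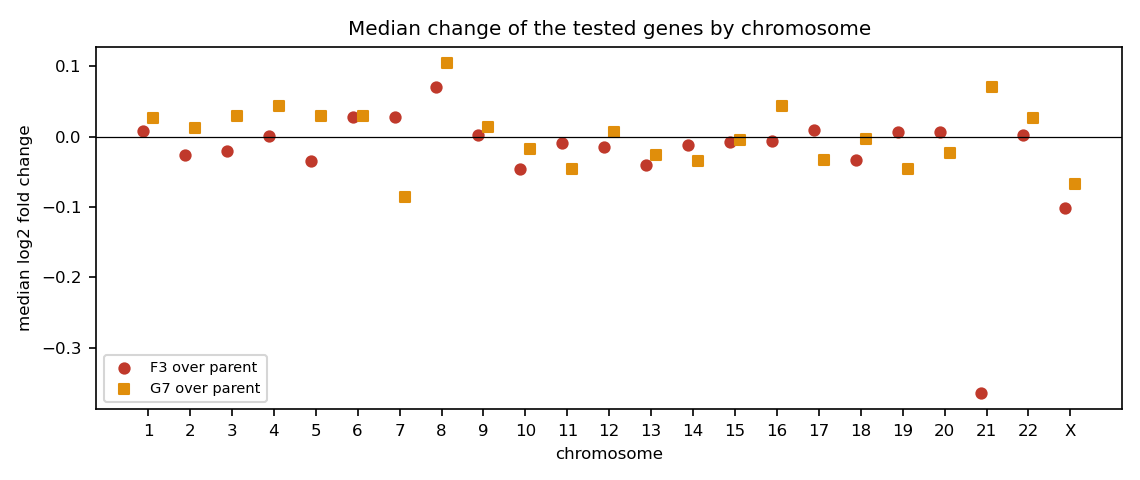
Median log2 fold change over the tested genes of each nuclear chromosome (horizontal axis), for F3 over parent (red circles) and G7 over parent (orange squares). Chromosome 21 stands at -0.36 in F3 and 0.07 in G7, and the other chromosomes lie between -0.101 and 0.104.

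RUNX2 was the member of the RUNX family that was higher in both lines. RUNX2, a Runt domain factor best known for bone formation, had 97.4 and 90.7 CPM in F3 and 106 and 125 CPM in G7, against 52.7 and 70.3 CPM in the parent. All 4 mutant libraries lay above both parent libraries. Its log2 fold change was 0.61 ± 0.13 in F3 (edgeR adjusted p = 0.00402) and 0.91 ± 0.13 in G7 (adjusted p = 0.000102). RUNX3, the third Runt domain gene, had 78.0 and 78.8 CPM in F3 and 72.5 and 73.1 CPM in G7, against 65.0 and 62.1 CPM in the parent, and was called in F3 (0.30, adjusted p = 0.0491) and not in G7 (0.20, adjusted p = 0.213). CBFB, the partner subunit, was at -0.39 in F3 (adjusted p = 0.0168) and -0.12 in G7 (adjusted p = 0.489). Of 9 tested genes of the RUNX family and its partners, RUNX2 was the only one called in both lines.

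The promoter of RUNX2 is shown because RUNX proteins bind the core letters TGTGGT, which it holds in the reverse orientation ACCACA. Here and below a promoter is the 250 bases before the start that RefSeq gives on GRCh38.p14, printed 5′ to 3′ on the strand of the gene, and capitals mark the matches. That start can differ from the one used for counting. The RUNX2 window is chr6:45328080-45328329, plus strand, with matches that begin 191 and 87 bases before the start.
RUNX2 promoter: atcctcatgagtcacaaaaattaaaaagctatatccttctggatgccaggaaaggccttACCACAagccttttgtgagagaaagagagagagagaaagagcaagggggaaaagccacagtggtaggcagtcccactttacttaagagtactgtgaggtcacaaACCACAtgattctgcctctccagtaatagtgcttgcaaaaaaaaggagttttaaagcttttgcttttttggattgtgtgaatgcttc
TGTGGT or ACCACA occurred in 745 of 9671 promoters of tested genes (7.7%). It was in 22 of 234 promoters of genes called higher in the pooled reading and in both lines (9.4%) and in 20 of 228 of those called lower (8.77%). Among the largest shared rises it was in 0 of 12 promoters, and among the largest shared falls in 1 of 17 (5.88%). Genes known to respond to RUNX1 had it in 1 of 17 (5.88%). The promoters printed with these letters were picked for holding a match. A match is a description and not a measured binding site.

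Granule proteins of promyelocytes were among the genes furthest above the parent. These proteases, peroxidases and antibacterial proteins are packed into granules early in neutrophil and eosinophil maturation. Of 27 tested members 13 were higher in both lines and 1, MS4A3, was lower, and the pooled reading called 11 higher and 1 lower. The 13 include PRG2 and PRG3, which were near 0 in the parent. These genes entered the test through the mutant libraries alone, so a lower call was not possible for them. The median log2 fold change was 0.66 in F3 and 1.00 in G7, beside -0.007 and 0.001 over all tested genes. Summed over the list, the level was 14590 CPM in each F3 library and 20720 and 19990 CPM in G7, against 10540 and 10070 CPM in the parent. The number higher in both lines was 12 or 13 whichever library was left out, and none was lower without G7 replicate 2.

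ELANE, neutrophil elastase, had 257 and 248 CPM in F3 and 525 and 473 CPM in G7, against 35.1 and 29.7 CPM in the parent. Both lines lay far above the parent and G7 above F3. The log2 fold change was 2.96 ± 0.12 in F3 (SE, edgeR adjusted p = 6.11e-11) and 3.95 ± 0.12 in G7 (adjusted p = 8.31e-13), and the lines differed by 0.98 ± 0.11 (adjusted p = 7.61e-06). PRTN3, proteinase 3, had 1185 and 1146 CPM in F3 and 1383 and 1341 CPM in G7, against 338 and 286 CPM in the parent. It rose by 1.90 ± 0.11 in F3 (adjusted p = 1.98e-09) and 2.13 ± 0.11 in G7 (adjusted p = 3.33e-10). AZU1, the antibacterial protein azurocidin, stood at a higher level, 3396 and 3498 CPM in F3 and 4285 and 3790 CPM in G7, against 2034 and 1591 CPM in the parent. Its rise was smaller, 0.93 ± 0.12 in F3 and 1.16 ± 0.12 in G7 (adjusted p = 4.13e-05 and 2.26e-06).

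PRSS57, another serine protease of neutrophil granules, rose by 0.71 ± 0.10 in F3 and 1.00 ± 0.10 in G7 (edgeR adjusted p = 0.000122 and 1.94e-06). It had 487 and 477 CPM in F3 and 607 and 571 CPM in G7, against 312 and 277 CPM in the parent, with no overlap between the genotypes. PRSS57, AZU1, PRTN3 and ELANE lie near each other on chromosome 19, between positions 685546 and 856247 of GRCh38. The PRSS57 promoter (chr19:695453-695702, minus strand) is shown as one with a match to the RUNX letters, which begins 77 bases before the start.
PRSS57 promoter: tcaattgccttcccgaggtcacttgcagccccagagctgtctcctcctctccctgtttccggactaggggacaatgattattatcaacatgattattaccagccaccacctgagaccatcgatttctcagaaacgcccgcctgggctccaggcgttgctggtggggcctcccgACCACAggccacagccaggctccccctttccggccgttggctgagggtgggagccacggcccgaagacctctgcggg

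Within the granule list EPX and BPI differed from the parent more in G7 than in F3. In G7 their log2 fold changes (4.92 and 5.09) were above that of ELANE (3.95). In F3 EPX (3.12) was above ELANE (2.96) and BPI (2.20) below it. EPX, eosinophil peroxidase, had 11.9 and 8.02 CPM in F3 and 38.7 and 30.7 CPM in G7, against 1.35 and 0.942 CPM in the parent. BPI, a protein that permeabilises Gram-negative bacteria, had 43.4 and 43.0 CPM in F3 and 321 CPM in each G7 library, against 9.68 and 9.18 CPM in the parent. The mutant libraries thus lay above the parent in both lines while the lines stood apart, by 1.80 ± 0.17 for EPX and 2.89 ± 0.11 for BPI (log2, G7 over F3, edgeR adjusted p = 2.24e-06 and 1.74e-11). CTSG, cathepsin G, rose by 1.25 in F3 and 2.85 in G7 (adjusted p = 3.09e-07 and 8.42e-12). MPO, myeloperoxidase, rose by 0.66 ± 0.12 in F3 and 1.48 ± 0.12 in G7 (adjusted p = 0.00101 and 1.1e-07). PRG2 and PRG3, eosinophil granule proteins, were also higher in both lines but stood at 0 to 0.28 CPM in the parent. MS4A3, a membrane protein of granulocyte precursors, fell by 0.51 in F3 and by 0.40 in G7 (adjusted p = 0.00247 and 0.0108).

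Of 6 tested proteins of the later, secondary granules none was higher in both lines and 3 were lower. F3 by itself had 5 called lower and none higher, while G7 had 3 lower and 2 higher. The lines differed in 5 of the 6. TCN1, a cobalamin-binding protein, had 0.696 and 0.816 CPM in F3 and 0.962 and 0.596 CPM in G7, against 2.6 and 2.12 CPM in the parent. ORM1, an acute phase protein, fell by 0.55 in F3 and fell by 1.54 in G7 (edgeR adjusted p = 0.000985 and 1.26e-08), and CHI3L1, a chitinase-like protein, by 0.61 and 1.86 (adjusted p = 0.0169 and 1.77e-06). Fewer cells at a stage and less RNA per cell cannot be told apart in such bulk samples.

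**Figure D3:**
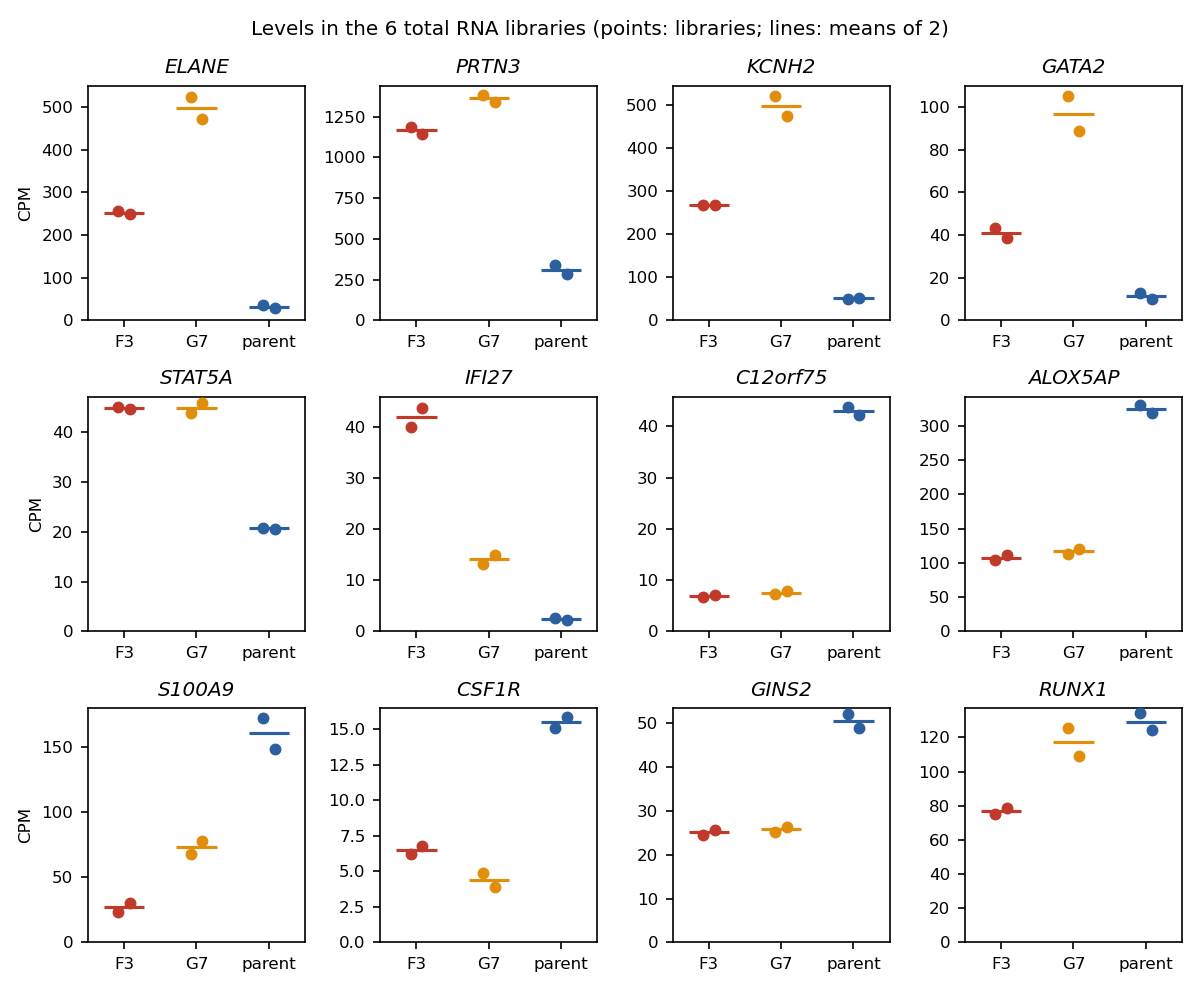
CPM (vertical axes, each from 0) of 12 genes in the 6 total RNA libraries, with 1 point per library, a line at the mean of each pair, and F3, G7 and the parent from left to right. ELANE, PRTN3, KCNH2, GATA2, STAT5A and IFI27 lie above the parent in all 4 mutant libraries, and C12orf75, ALOX5AP, S100A9, CSF1R and GINS2 below it. RUNX1 lies below the parent in F3, with 75.4 and 78.8 CPM.

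Genes of monocyte maturation moved mostly the other way. Of 34 tested members 10 were lower in both lines and 2 were higher, with a median log2 fold change of -0.30 in F3 and -0.91 in G7. The pooled reading called 8 lower and 1 higher. Summed over the list, the level was 997 and 1016 CPM in F3 and 781 and 815 CPM in G7, against 1154 and 1093 CPM in the parent. F3 by itself had 12 members called lower and 7 higher, and G7 had 21 lower and 4 higher. The shared count was 8 to 11 lower with each library left out. The 2 higher in both lines were ITGAX and TNFSF13B, and 1 was left without either F3 replicate, G7 replicate 3 or either parent replicate.

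S100A9, a subunit of the calcium-binding complex calprotectin, had 23.6 and 30.5 CPM in F3 and 67.9 and 78.3 CPM in G7, against 173 and 149 CPM in the parent. Both lines lay below the parent, and F3 lay below G7. The log2 fold change was -2.57 ± 0.14 in F3 and -1.14 ± 0.13 in G7 (edgeR adjusted p = 9.59e-10 and 6.71e-06). Its promoter (chr1:153357604-153357853, plus strand) is shown as that of a lower gene with the RUNX letters, which begin 103 bases before the start.
S100A9 promoter: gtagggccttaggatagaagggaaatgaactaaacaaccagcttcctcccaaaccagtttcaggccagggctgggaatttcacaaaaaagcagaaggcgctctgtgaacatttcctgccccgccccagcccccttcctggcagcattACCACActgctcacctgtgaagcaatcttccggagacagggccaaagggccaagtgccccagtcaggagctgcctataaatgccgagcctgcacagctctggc

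CSF1R, the receptor of macrophage colony-stimulating factor, is a gene that RUNX1 is known to regulate. It had 6.21 and 6.77 CPM in F3 and 4.86 and 3.87 CPM in G7, against 15.0 and 15.9 CPM in the parent. The genotypes did not overlap, and the log2 fold change was -1.25 ± 0.16 in F3 and -1.82 ± 0.17 in G7 (edgeR adjusted p = 4.01e-05 and 6.33e-07). LST1, an immunoreceptor-like protein of monocytes, had 29.1 and 33.1 CPM in F3 and 22.5 and 23.2 CPM in G7, against 96.2 and 82.8 CPM in the parent. FGR, a Src family kinase of myeloid cells, had 13.8 and 11.8 CPM in F3 and 17.0 and 12.3 CPM in G7, against 43.8 and 44.7 CPM in the parent. Neither gene overlapped between genotypes, with log2 fold changes of -1.52 in F3 and -1.97 in G7 for LST1 and -1.78 and -1.59 for FGR.

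MCEMP1, a mast cell and monocyte membrane protein, fell by 2.19 in F3 and by 2.34 in G7. CD1D, which presents lipids to T cells, fell by 2.04 and 2.52, and RNASE6, an antibacterial ribonuclease of monocytes, by 1.62 and 2.81. AIF1, an actin-binding protein of macrophages, fell by 1.19 and 1.06 (edgeR adjusted p = 2.76e-06 in F3 and 5.75e-06 in G7). NCF1, a cytosolic subunit of the phagocyte oxidase, was the only one of 8 oxidase genes lower in both lines (-1.20 and -0.92), and it has near-identical pseudogenes, so its counts are uncertain. ITGAX, the integrin subunit CD11c of myeloid cells, went the other way, with 20.2 and 18.3 CPM in F3 and 10.5 and 9.23 CPM in G7, against 5.31 and 4.80 CPM in the parent. It rose by 1.93 ± 0.16 in F3 and 0.96 ± 0.16 in G7 (adjusted p = 2.11e-07 and 0.000435). LYZ, lysozyme, was called lower in G7 (-1.69, adjusted p = 6.35e-09) and not in F3 (-0.23, adjusted p = 0.123), and the lines differed (adjusted p = 9.67e-08).

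Chemokines, chemoattractants and their receptors had 7 of 23 tested members lower in both lines and 3 higher. CXCL8, the neutrophil attractant interleukin 8, had 16.0 and 17.7 CPM in F3 and 19.9 and 21.6 CPM in G7, against 44.2 and 48.4 CPM in the parent. It fell by 1.46 ± 0.12 in F3 and by 1.16 ± 0.12 in G7 (edgeR adjusted p = 2.66e-07 and 2.15e-06). The monocyte receptors CCR1 and CCR2 were lower in both lines. Their log2 fold changes were -0.64 and -0.67 in F3 and -3.04 and -4.33 in G7, and the lines differed for both CCR1 and CCR2 (edgeR adjusted p = 4.7e-09 and 1.09e-08). CCL5, a chemokine that attracts T cells, rose by 0.72 ± 0.10 in F3 and 1.15 ± 0.10 in G7 (adjusted p = 0.000117 and 4.35e-07). Without F3 replicate 3 the number lower in both lines was 3.

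Among transcription factors of stem and progenitor cells 4 of 19 tested were higher in both lines and none was lower. GATA2, a factor of stem cells and mast cells that RUNX1 is known to regulate, had 43.5 and 38.4 CPM in F3 and 105 and 88.5 CPM in G7, against 12.6 and 10.1 CPM in the parent. Its log2 fold change was 1.85 ± 0.14 in F3 and 3.09 ± 0.14 in G7 (edgeR adjusted p = 1.18e-07 and 9.54e-11), and the lines differed by 1.24 ± 0.13 (adjusted p = 4.05e-06). MYB, which keeps blood progenitors immature, had 669 and 658 CPM in F3 and 659 and 758 CPM in G7, against 410 and 456 CPM in the parent. MYC, a driver of growth, had 1554 and 1505 CPM in F3 and 1630 and 1778 CPM in G7, against 991 and 1027 CPM in the parent. Neither gene overlapped between genotypes, with log2 fold changes of 0.62 and 0.71 for MYB and 0.60 and 0.76 for MYC in F3 and G7. NFIA, a factor of erythroid and granulocytic fate choice, rose by 1.28 and 1.22, with 4.07 to 5.07 CPM in the mutant against 1.67 and 2.17 CPM in the parent.

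Among 27 tested factors of the myeloid lineage 4 were higher and 1 lower in both lines. STAT5A, which carries signals of cytokine receptors, had 45.0 and 44.7 CPM in F3 and 44.0 and 45.8 CPM in G7, against 20.8 and 20.6 CPM in the parent. It had nearly the same level in all 4 mutant libraries, at a log2 fold change of 1.12 ± 0.11 in each line (edgeR adjusted p = 2.37e-06 in F3 and 1.54e-06 in G7). VDR, the vitamin D receptor, rose by 0.58 and 0.44, and STAT5B by 0.40 and 0.33, a shared call lost without either F3 replicate, either G7 replicate or parent replicate 1. STAT3 rose by 0.45 and 0.41 and JUN, an AP-1 subunit, fell by 0.39 and by 0.54, but both lost the shared call without F3 replicate 2 or 3, and also without parent replicate 1 for STAT3 and parent replicate 2 for JUN. The list had 2 higher without either F3 replicate or parent replicate 1. It had 4 lower without G7 replicate 2 or parent replicate 2, and 2 without G7 replicate 3. SPI1, the master factor of monocytes, was called in neither line (-0.16 in F3, adjusted p = 0.451, and -0.25 in G7, adjusted p = 0.214). CEBPA, that of granulocytes, was called lower in G7 alone (-0.69, adjusted p = 0.00271, against -0.33 and adjusted p = 0.116 in F3), and the difference between lines did not pass (adjusted p = 0.124). IRF8, a factor of monocyte fate, was likewise called in G7 (-1.08, adjusted p = 5.23e-07) and not in F3 (-0.10, adjusted p = 0.499), and here the lines differed (adjusted p = 3.1e-06).

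Of 24 tested genes known to respond to RUNX1, 7 were higher and 2 lower in both lines, and the pooled reading called the same numbers. Several of them are described above under granules, receptors and progenitor factors. Whether each moved in the direction known for RUNX1 was not tested. MYL9, a myosin light chain that RUNX1 is known to control in megakaryocytes, had 21.2 and 22.5 CPM in F3 and 22.9 and 20.4 CPM in G7, against 8.48 and 7.82 CPM in the parent. Both lines gave nearly the same rise, 1.42 ± 0.14 in F3 and 1.41 ± 0.14 in G7 (edgeR adjusted p = 1.63e-06 and 1.19e-06). CCND3, the cyclin D3 that drives entry into S phase, had 80.7 and 83.9 CPM in F3 and 66.7 and 61.0 CPM in G7, against 194 and 178 CPM in the parent. It fell by 1.18 ± 0.10 in F3 and fell by 1.54 ± 0.11 in G7 (adjusted p = 7.06e-07 and 2e-08). ITGA2B, the platelet integrin subunit, rose by 1.57 in F3 and 3.99 in G7 (adjusted p = 0.00214 and 1.26e-08), at a parent level of 1.51 and 0.942 CPM. Of 19 tested platelet and megakaryocyte genes, 2 were higher in both lines (MYL9 and ITGA2B) and 1, NRGN, a calmodulin-binding protein, was lower.

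Many of the largest shared rises belonged to none of these groups. KCNH2, a voltage-gated potassium channel best known from the heart, had 267 and 268 CPM in F3 and 521 and 474 CPM in G7, against 50.5 and 51.3 CPM in the parent. The log2 fold change was 2.39 ± 0.10 in F3 and 3.29 ± 0.11 in G7 (edgeR adjusted p = 1.27e-10 and 9.25e-13). MFAP4, an extracellular matrix glycoprotein, had 65.3 and 70.8 CPM in F3 and 62.2 and 59.2 CPM in G7, against 9.83 and 10.7 CPM in the parent. It changed by about the same amount in both lines, 2.73 ± 0.12 in F3 and 2.56 ± 0.12 in G7 (adjusted p = 1.37e-10 and 1.65e-10). EPHB2, an ephrin receptor kinase, had 30.2 and 25.4 CPM in F3 and 66.9 and 55.0 CPM in G7, against 2.65 and 2.02 CPM in the parent, and its relative EPHB4 was also higher in both lines, a call lost without F3 replicate 2 or parent replicate 2.

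MGLL, the lipase that cleaves monoacylglycerols, had 48.8 and 52.4 CPM in F3 and 121 and 113 CPM in G7, against 6.87 and 6.36 CPM in the parent. HHLA2, a B7 family ligand of T cells, rose by 3.10 in F3 and 4.19 in G7, and PPP1R1B, an inhibitor of protein phosphatase 1, by 2.68 and 3.80. For these 3 genes G7 stood further from the parent than F3, with edgeR adjusted p = 8.17e-07, 3.09e-06 and 1.52e-06 for the difference between lines. DEFB1, an antimicrobial defensin, rose by 2.10 ± 0.11 in F3 and 2.36 ± 0.11 in G7, with 167 to 213 CPM in the mutant against 43.1 and 37.2 CPM in the parent. KLHDC7B, a Kelch repeat protein, stood further from the parent in F3, with 31.4 and 32.8 CPM in F3 and 9.87 and 7.94 CPM in G7, against 1.09 and 1.41 CPM in the parent. TRANK1 rose by 1.60 and 2.08 and ANKRD55 by 1.97 and 3.27.

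C12orf75, an open reading frame of chromosome 12, fell by nearly the same amount in both lines. It had 6.66 and 7.10 CPM in F3 and 7.29 and 7.79 CPM in G7, against 43.9 and 42.1 CPM in the parent. The log2 fold change was -2.64 ± 0.13 in F3 and -2.51 ± 0.13 in G7 (edgeR adjusted p = 4.52e-10 and 4.64e-10). ALOX5AP, the protein that presents arachidonate to 5-lipoxygenase for leukotriene synthesis, had 104 and 111 CPM in F3 and 114 and 120 CPM in G7, against 331 and 318 CPM in the parent. It fell by 1.59 ± 0.10 in F3 and by 1.48 ± 0.10 in G7 (adjusted p = 1.1e-08 and 1.81e-08). VAT1L stood at 130 to 147 CPM in the mutant against 336 and 383 CPM in the parent, and PRAM1, an adaptor of neutrophils, at 7.94 to 8.70 CPM against 30.6 and 21.9 CPM. For all 4 genes the mutant libraries lay close together and below both parent libraries.

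PLEKHO1, a pleckstrin homology protein, fell by 1.98 in F3 and fell by 2.70 in G7, CKAP4, an endoplasmic reticulum membrane protein, by 1.21 and 2.03, and SDC2, the proteoglycan syndecan 2, by 1.19 and 2.10. These 3 stood lower in G7 than in F3 (edgeR adjusted p = 0.0234, 5.58e-05 and 0.000108). IRS1, the adaptor of the insulin receptor, had 3.98 and 3.02 CPM in F3 and 3.29 and 3.72 CPM in G7, against 8.43 and 11.3 CPM in the parent. ETS1, a transcription factor that partners RUNX1 on DNA, had 13.9 and 12.7 CPM in F3 and 9.62 and 10.2 CPM in G7, against 28.1 and 31.6 CPM in the parent. It fell by 1.17 ± 0.13 in F3 and by 1.59 ± 0.13 in G7 (adjusted p = 7.99e-06 and 2.12e-07). SEMA4C, a semaphorin, and IPCEF1 fell by 1.35 and 1.25 in F3 and by 1.47 and 1.74 in G7.

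Genes that interferon induces were higher in the mutant more often than those of any other list with at least 12 tested members. Interferon signals through its receptors to an element in the promoters of antiviral genes. Of 55 tested members 33 were higher in both lines and none was lower, and the pooled reading called 27 higher. The median log2 fold change was 1.02 in F3 and 0.57 in G7. In 41 of the 55 all 4 mutant libraries lay above both parent libraries, which was so for 16.0% of all tested genes. F3 alone had 46 called higher, and G7 had 35 higher and 3 lower, with a difference between the lines in 30. The number higher in both lines was 30 to 34 with each library left out.

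IFI27, a mitochondrial protein induced by interferon alpha, had 40.0 and 43.7 CPM in F3 and 13.2 and 14.9 CPM in G7, against 2.65 and 2.31 CPM in the parent. F3 was the higher line, with a log2 fold change of 4.08 ± 0.16 in F3 and 2.5 ± 0.17 in G7 (edgeR adjusted p = 6.11e-11 and 1.44e-08) and a difference of -1.57 ± 0.13 for G7 over F3 (adjusted p = 3.07e-07). OAS2, which senses double-stranded RNA, had 170 and 169 CPM in F3 and 115 and 123 CPM in G7, against 49.3 and 50.9 CPM in the parent. BST2, tetherin, which holds budding virus at the cell surface, had 178 and 191 CPM in F3 and 190 and 197 CPM in G7, against 87.3 and 75.7 CPM in the parent. BST2 rose evenly, by 1.18 ± 0.11 in F3 and 1.25 ± 0.11 in G7 (adjusted p = 8.54e-07 and 2.81e-07), while OAS2 rose by 1.76 and 1.25 and differed between lines (adjusted p = 0.00226).

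IFI6, an inhibitor of apoptosis and virus replication, had 54.6 and 52.6 CPM in F3 and 44.5 and 37.4 CPM in G7, against 18.8 and 14.8 CPM in the parent. IFIH1, the RNA sensor MDA5, had 31.7 CPM in each F3 library and 29.2 and 30.1 CPM in G7, against 14.8 and 15.6 CPM in the parent. Both genes were above the parent in all 4 mutant libraries, with log2 fold changes of 1.68 and 1.29 for IFI6 and 1.06 and 0.96 for IFIH1. IFI44L and EPSTI1 rose by 3.49 and 3.11 in F3 and by 2.40 and 2.35 in G7. HELZ2, a helicase coactivator induced by interferon, rose by 2.26 ± 0.18 and 2.15 ± 0.18 (edgeR adjusted p = 1.85e-07 and 2.21e-07). Some classic members were not called in both lines. ISG15 was called in F3 (1.33, adjusted p = 8.08e-06) and not in G7 (0.34, adjusted p = 0.13), and MX1 stood at 1.04 to 1.62 CPM in the mutant against 1.04 and 1.37 CPM in the parent.

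The promoters of 4 of these genes are shown because they hold the interferon element. The windows are IFI6 at chr1:27672193-27672442, minus strand, IFI27 at chr14:94110486-94110735, plus strand, IFIH1 at chr2:162318685-162318934, minus strand, and BST2 at chr19:17405631-17405880, minus strand. Capitals mark the letters GAAA, any pair of bases and GAAA again, or TTTC, any pair of bases and TTTC on the other strand, and overlapping matches run together. The matches begin 156, 115 and 93 bases before the start in IFI6, 108 and 95 in IFI27, 159, 153 and 21 in IFIH1, and 130 and 124 in BST2.
IFI6 promoter: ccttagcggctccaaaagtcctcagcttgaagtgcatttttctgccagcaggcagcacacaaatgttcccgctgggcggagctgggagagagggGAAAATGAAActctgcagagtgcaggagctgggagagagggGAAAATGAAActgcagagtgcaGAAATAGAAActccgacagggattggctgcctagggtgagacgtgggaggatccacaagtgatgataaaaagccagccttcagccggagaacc
IFI27 promoter: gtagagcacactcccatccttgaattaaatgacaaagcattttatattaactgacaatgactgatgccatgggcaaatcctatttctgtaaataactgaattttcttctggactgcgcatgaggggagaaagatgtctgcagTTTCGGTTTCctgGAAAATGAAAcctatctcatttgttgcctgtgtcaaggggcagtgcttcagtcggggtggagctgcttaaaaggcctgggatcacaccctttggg
IFIH1 promoter: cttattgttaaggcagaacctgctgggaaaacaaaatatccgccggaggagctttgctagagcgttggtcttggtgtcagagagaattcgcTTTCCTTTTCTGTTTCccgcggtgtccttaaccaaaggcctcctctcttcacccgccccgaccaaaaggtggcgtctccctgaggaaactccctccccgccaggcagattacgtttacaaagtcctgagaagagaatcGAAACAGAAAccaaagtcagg
BST2 promoter: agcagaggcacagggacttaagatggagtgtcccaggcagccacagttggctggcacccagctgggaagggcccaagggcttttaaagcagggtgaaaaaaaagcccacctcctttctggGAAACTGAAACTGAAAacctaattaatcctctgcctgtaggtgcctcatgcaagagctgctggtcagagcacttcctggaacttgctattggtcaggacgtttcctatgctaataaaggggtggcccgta
The element occurred in 245 of 9671 promoters (2.53%) and in 24 of 44 of the list (54.5%). It was in 16 of 27 promoters of list members called higher in both lines (59.3%) and in 8 of 17 of the others (47.1%). The list gathers interferon targets by choice, so its share is a description of the list.

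Upstream regulators of the interferon pathway moved less evenly, with 2 of 26 higher and 2 lower in both lines, and 4 higher without G7 replicate 3. Over all tested genes 4.14% were higher and 3.63% lower in both lines. IRF7, which amplifies the response, had 58.9 and 53.9 CPM in F3 and 36.0 and 28.3 CPM in G7, against 20.6 and 16.0 CPM in the parent. It lay above the parent in every mutant library, at a log2 fold change of 1.62 in F3 and 0.82 in G7. The kinase IKBKE fell by 0.88 in F3 and by 1.14 in G7 (edgeR adjusted p = 0.0001 and 4.24e-06), and NLRC5, the activator of MHC class I genes, by 0.58 and 0.84 (adjusted p = 0.00229 and 6.54e-05).

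Genes of MHC class II, which present peptides to helper T cells, had 4 of 14 tested members higher in both lines and none lower. HLA-DRA, the invariant alpha chain of HLA-DR, had 44.1 and 48.9 CPM in F3 and 23.7 and 27.0 CPM in G7, against 5.62 and 6.97 CPM in the parent. It rose by 2.88 ± 0.14 in F3 and 2.00 ± 0.15 in G7 (edgeR adjusted p = 4.52e-10 and 3.95e-08). CIITA, the coactivator that switches on the class II genes, had 26.9 and 26.7 CPM in F3 and 13.8 and 12.5 CPM in G7, against 8.17 and 8.48 CPM in the parent. HLA-DPA1 rose by 1.68 and 1.80. RFX5 rose by 0.46 and 0.44, a shared call lost without F3 replicate 2. Of 18 genes of MHC class I and peptide loading none was higher in both lines. HLA-B and B2M were at 0.24 and 0.17 in F3 and -0.24 and 0.08 in G7, and neither gene was called in either line (edgeR adjusted p = 0.0921 and 0.272 in F3 and 0.0929 and 0.661 in G7). HLA genes are polymorphic and similar to each other, so their counts are uncertain.

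Most genes of DNA replication were lower in both lines. Of 55 tested members 35 were lower in both lines and none was higher. The pooled reading called 23 lower. The median log2 fold change was -0.49 in F3 and -0.40 in G7, and the summed level was 4737 and 5027 CPM in F3 and 4947 and 5150 CPM in G7, against 6791 and 6880 CPM in the parent. In 49 of the 55 all 4 mutant libraries lay below both parent libraries, beside 17.0% of all tested genes. Single changes were small, and the shared count was 13 without F3 replicate 2 and 22 without F3 replicate 3.

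GINS2, a subunit of the helicase that opens the fork, had 24.6 and 25.8 CPM in F3 and 25.3 and 26.4 CPM in G7, against 52.1 and 49.0 CPM in the parent. Its level was close to equal in the mutant libraries, at -1.0 ± 0.11 in F3 and -0.97 ± 0.11 in G7 (log2, edgeR adjusted p = 7.93e-06 and 7.76e-06). MCM3, of the ring that loads onto origins, had 295 and 326 CPM in F3 and 334 and 360 CPM in G7, against 508 and 497 CPM in the parent. RRM2, which makes deoxynucleotides, had 264 and 300 CPM in F3 and 252 and 289 CPM in G7, against 417 and 472 CPM in the parent. SLBP, which binds histone messages, fell by 0.55 and 0.53. All 6 MCM2 to MCM7 genes were lower in both lines, by 0.50 to 0.74 in F3 and by 0.40 to 0.53 in G7.

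Mitosis genes had 10 of 58 tested members lower in both lines and none higher, with medians of -0.19 in F3 and -0.29 in G7. SPC25, a kinetochore subunit, had 10.0 and 11 CPM in F3 and 11.6 and 11.5 CPM in G7, against 19.4 and 18.7 CPM in the parent. CENPM, a centromere protein, fell by 0.70 ± 0.12 in F3 and by 0.65 ± 0.12 in G7 (edgeR adjusted p = 0.000967 and 0.00143). The count of 10 was 2 without F3 replicate 2, 5 without F3 replicate 3, 6 without G7 replicate 2 or parent replicate 2, and 16 without G7 replicate 3. Among 26 tested G1 genes CCND2, cyclin D2, was higher in both lines, by 0.78 in F3 and 1.79 in G7 (adjusted p = 0.00116 and 7.6e-08), and CCND3, E2F2, E2F8 and CDC25A were lower. Without F3 replicate 2 or F3 replicate 3 the number lower was 1.

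Transcripts of the mitochondrial genome and nuclear genes of the respiratory chain differed in direction. Of the 13 protein-coding mitochondrial transcripts 6 were higher in both lines, with medians of 0.39 in F3 and 0.89 in G7. They are encoded together, and their summed level was 27740 and 21050 CPM in F3 and 29200 and 33380 CPM in G7, against 20440 and 16870 CPM in the parent. MT-ND1, of complex I, had 1217 and 986 CPM in F3 and 1216 and 1530 CPM in G7, against 746 and 573 CPM in the parent. It rose by 0.74 ± 0.14 in F3 and 1.06 ± 0.14 in G7 (edgeR adjusted p = 0.00147 and 3.88e-05). The count of 6 was 2 without F3 replicate 2 and 3 without parent replicate 2, and the sum in F3 replicate 3 lay near that of parent replicate 1. The share of all counts from the mitochondrial genome was 3.59% and 2.71% in F3 and 3.80% and 4.20% in G7, against 2.54% and 2.22% in the parent. The part of RNA quality in these values was not tested.

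Of 75 nuclear subunits of oxidative phosphorylation 14 were lower in both lines and none higher, with medians of -0.30 in F3 and -0.27 in G7. COX7B, of cytochrome oxidase, had 108 and 118 CPM in F3 and 108 and 123 CPM in G7, against 178 and 162 CPM in the parent. It fell by 0.59 ± 0.11 in F3 and by 0.56 ± 0.11 in G7 (edgeR adjusted p = 0.00123 and 0.00152). NDUFAB1, of complex I, fell by 0.60 and by 0.48. The count of 14 was 2 without F3 replicate 2, 6 without parent replicate 1 and 9 without G7 replicate 2.

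In the BCL2 family, which sets the threshold of apoptosis, 2 of 16 tested members were higher and 2 lower in both lines. The number higher was 1 without any one of the mutant libraries, and the number lower was 1 without F3 replicate 2, G7 replicate 3 or parent replicate 1. BCL2A1, an inhibitor of apoptosis, had 7.55 and 6.62 CPM in F3 and 7.19 and 9.93 CPM in G7, against 16.4 and 14.9 CPM in the parent. It fell by 1.15 ± 0.17 in F3 and by 0.87 ± 0.17 in G7 (edgeR adjusted p = 0.00018 and 0.00129). BIK, which promotes apoptosis, had 3.43 and 4.99 CPM in F3 and 5.11 and 4.82 CPM in G7, against 1.56 and 1.70 CPM in the parent. BCL2 itself was called in neither line (-0.09 in F3, adjusted p = 0.586, and -0.24 in G7, adjusted p = 0.124).

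ATF4 drives a stress programme when translation initiation is curbed. Of 41 tested genes of that programme 2 were higher in both lines, ATF4 and ASNS, which is near the 4.14% over all tested genes. F3 had 17 called higher and 2 lower and G7 3 higher and none lower, with medians of 0.30 in F3 and 0.01 in G7, and the lines differed in 16. ASNS, asparagine synthetase, had 97.6 and 114 CPM in F3 and 88.3 and 99.6 CPM in G7, against 69.8 and 67.2 CPM in the parent. Its shared call was lost without G7 replicate 3, and the count of 2 was 1 without parent replicate 2. In RiboLace ASNS was called the other way, with 35.9 and 29.6 CPM in F3 against 77.2 and 65.5 CPM in the parent (log2 fold change -1.09 ± 0.31, edgeR adjusted p = 0.0212). Of 24 cholesterol synthesis genes 3 were lower in both lines, 1 without F3 replicate 2, F3 replicate 3 or parent replicate 1 and 5 without G7 replicate 2 or parent replicate 2. Of 18 factors of nonsense-mediated decay, the pathway that destroys messages with early stop codons, 1 was higher and 3 were lower in both lines, and without F3 replicate 2 none was. The number lower was 1 without F3 replicate 3, G7 replicate 2 or parent replicate 1. SMG1, the kinase of that pathway, rose by 0.58 and 0.63, and EIF4A3, of the exon junction complex, fell by 0.54 and 0.44.

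Adhesion molecules had 4 of 28 tested members higher in both lines and 1 lower. PECAM1, an adhesion receptor of leukocytes and endothelium, had 167 and 152 CPM in F3 and 151 and 142 CPM in G7, against 84.2 and 96.0 CPM in the parent. All mutant libraries lay above the parent, with a rise of 0.82 ± 0.11 in F3 and 0.70 ± 0.11 in G7 (edgeR adjusted p = 5.88e-05 and 0.000175). JAM3, a junction molecule, was the lower one, a call lost without parent replicate 1. Of 29 cytokine receptors and feedback genes 3 were lower in both lines, CSF1R, IL10RB and TNFRSF1B. That number fell when any library other than G7 replicate 2 was left out. It was 2 without the genes of chromosome 21, on which IL10RB lies and whose counts were lower in F3. The share lower in both lines over all tested genes was 3.63%. TNFRSF1B, a receptor of tumour necrosis factor, had 139 and 140 CPM in F3 and 75.5 and 66.0 CPM in G7, against 224 and 203 CPM in the parent. Of 11 surface markers of immature cells none was called in both lines. FLT3, a receptor kinase of progenitors, was called lower in G7 (-1.02, adjusted p = 3.72e-06) and not in F3 (0.18, adjusted p = 0.264).

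**Figure D4:**
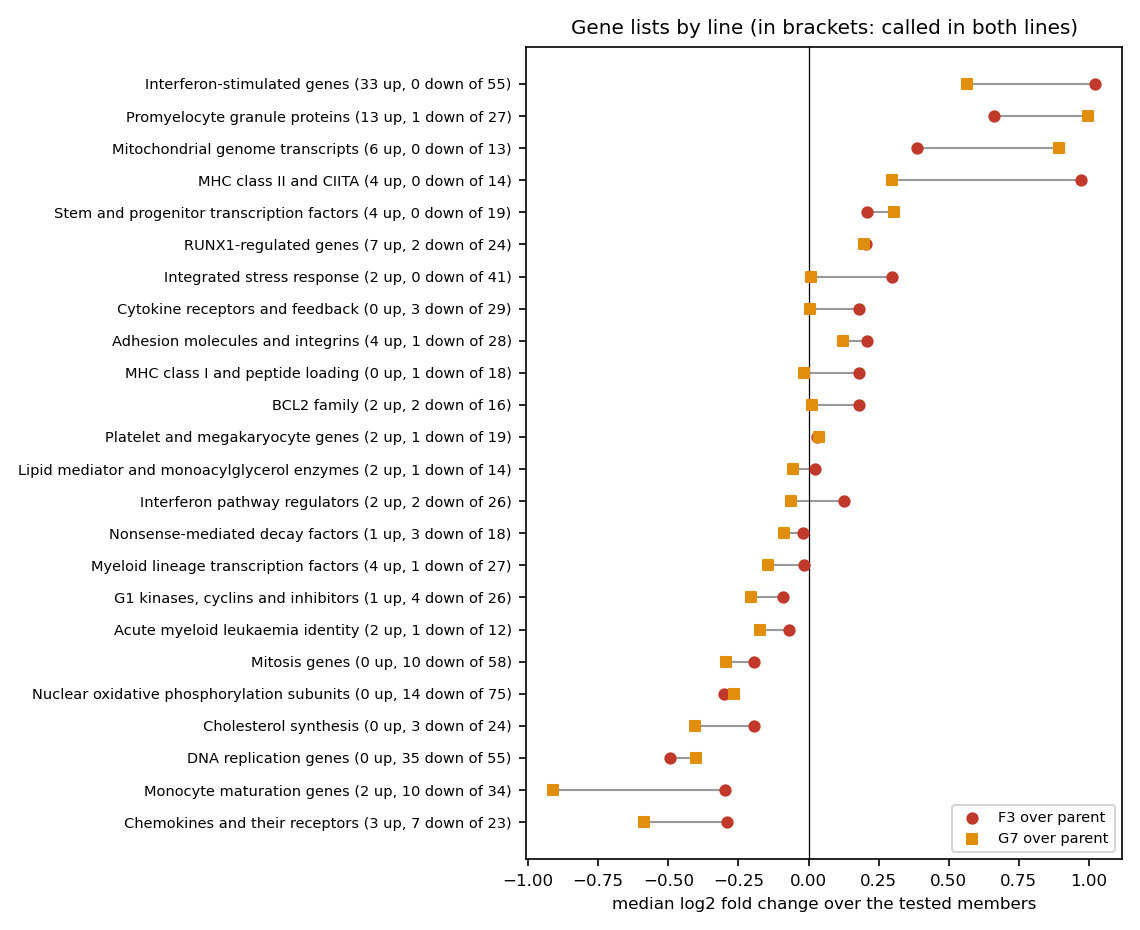
Median log2 fold change over the tested members of each list with at least 12 of them (horizontal axis), for F3 over parent (red circles) and G7 over parent (orange squares). The brackets give the number of members called in the same direction in both lines. Interferon-stimulated genes lie furthest right in F3 at 1.02, and monocyte maturation genes furthest left in G7 at -0.91.

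Markers of the labelled myeloid cell type were present, with 12 of 15 identity genes tested and none of the 15 at 0 reads in all libraries. CD33, a myeloid surface receptor, had 65.8 and 62.5 CPM in F3 and 69.3 and 62.6 CPM in G7, against 74.6 and 75.01 CPM in the parent, and was called in neither line. MPO and KMT2A, a histone methyltransferase, were higher in both lines, and LSP1, an actin-binding protein of leukocytes, was lower. KMT2A rose by 0.42 in F3 and 0.43 in G7 (edgeR adjusted p = 0.0464 and 0.0396). The count of 2 higher was 1 without F3 replicate 2, and 3 without either G7 replicate or parent replicate 2, and LSP1 lost its call without F3 replicate 3. The number lower was 2 without either G7 replicate or parent replicate 2. Markers of other cell types were mostly at or near 0. Of 18 erythroid markers 10 had no read in any of the 6 libraries and 2 were tested, of which TFR2, a transferrin receptor of erythroid cells and liver, was lower in both lines, a call lost without F3 replicate 2. Of 18 markers of adherent cells 7 had no read and none was called in both lines. VIM, an intermediate filament protein that myeloid cells also make, had 517 and 560 CPM in F3 and 270 and 292 CPM in G7, against 311 and 300 CPM in the parent, so F3 stood apart from the other lines. Of 20 B and T lymphoid markers 4 had no read and 6 were tested, with none called in both lines. PAX5, a B cell factor, stood at 12.9 to 14.3 CPM in the mutant against 10.8 and 11.7 CPM in the parent. Summed lymphoid markers stood at 141 to 164 CPM in the mutant against 138 and 142 CPM in the parent, most of it from CD4, which monocytic cells share.

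RiboLace gave a reading of the F3 effect in 4 further libraries, of 1192811 and 465052 counts in F3 against 2034796 and 1054581 in the parent. It called 1154 of 9805 tested genes (11.8%), with 606 higher (6.18%) and 548 lower (5.59%). Of the 347 genes higher in the pooled reading 248 were tested here, and 70 were called higher and 2 lower, with a median log2 fold change of 0.62. Of the 289 lower genes 230 were tested, and 56 were called lower and 1 higher, with a median of -0.67. The median over all tested genes was -0.013. The RiboLace and total RNA libraries do not share samples, but both come from the same F3 and parent lines. Of the 20 named rises 15 were tested, all 15 above 0 and 14 called. Of the 20 named falls 16 were tested, all 16 below 0 and 12 called. A gene could enter the test through the line where it was high alone, as CSF1R did in the parent. These counts are therefore no check of agreement. Among named falls not tested, CD1D, PLEKHO1 and RNASE6 stood lower in F3. IPCEF1 went the other way, with 5.13 and 6.35 CPM in F3 against 1.07 and 2.85 CPM in the parent.

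ELANE stood at 355 and 188 CPM in RiboLace of F3 against 52.5 and 42.7 CPM in the parent (log2 fold change 2.52 ± 0.30, edgeR adjusted p = 1.96e-06). KCNH2 stood at 303 and 254 CPM against 38.0 and 49.4 CPM (2.69 ± 0.28, adjusted p = 5.1e-07), and GATA2 at 147 and 138 CPM against 32.7 and 34.2 CPM (2.10 ± 0.28, adjusted p = 7.54e-06). CSF1R stood at 0.855 and 0 CPM against 30.01 and 15.2 CPM. ALOX5AP stood at 43.6 and 46.5 CPM against 367 and 184 CPM (-2.63 ± 0.32, adjusted p = 2.57e-06). In these genes the F3 and parent libraries did not overlap in either assay. They are examples picked from genes called in RiboLace, and other genes shared by the lines were not called there. Of genes higher in both lines, BST2 was at -0.13 ± 0.28 in RiboLace and IFI6 at 0.10 ± 0.34 (edgeR adjusted p = 0.812 and 0.89). MYC was at 0.06 ± 0.32, RUNX2 at 0.09 ± 0.41 and PECAM1 at -0.66 ± 0.32 (adjusted p = 0.931, 0.916 and 0.176). NLRC5, lower in both lines, was at 0.52 ± 0.28 (adjusted p = 0.237).

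Interferon-stimulated genes had 10 higher and 1 lower of 37 tested in RiboLace, and monocyte maturation genes 9 lower and none higher of 20. Genes of the ATF4 stress programme had none higher and 7 lower of 32 in RiboLace, with a median of -0.26. Granule proteins had 4 higher and 5 lower of 21, with a median of -0.15. AZU1, for example, was at -0.03 ± 0.36 in RiboLace (edgeR adjusted p = 0.968). DNA replication genes had 2 lower and 1 higher of 54, with a median of -0.31. Nuclear oxidative phosphorylation genes had 26 lower of 72, while none of the 13 mitochondrial transcripts was called. RiboLace libraries were shallower, and whether the assays differ for these lists was not tested.

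**Figure D5:**
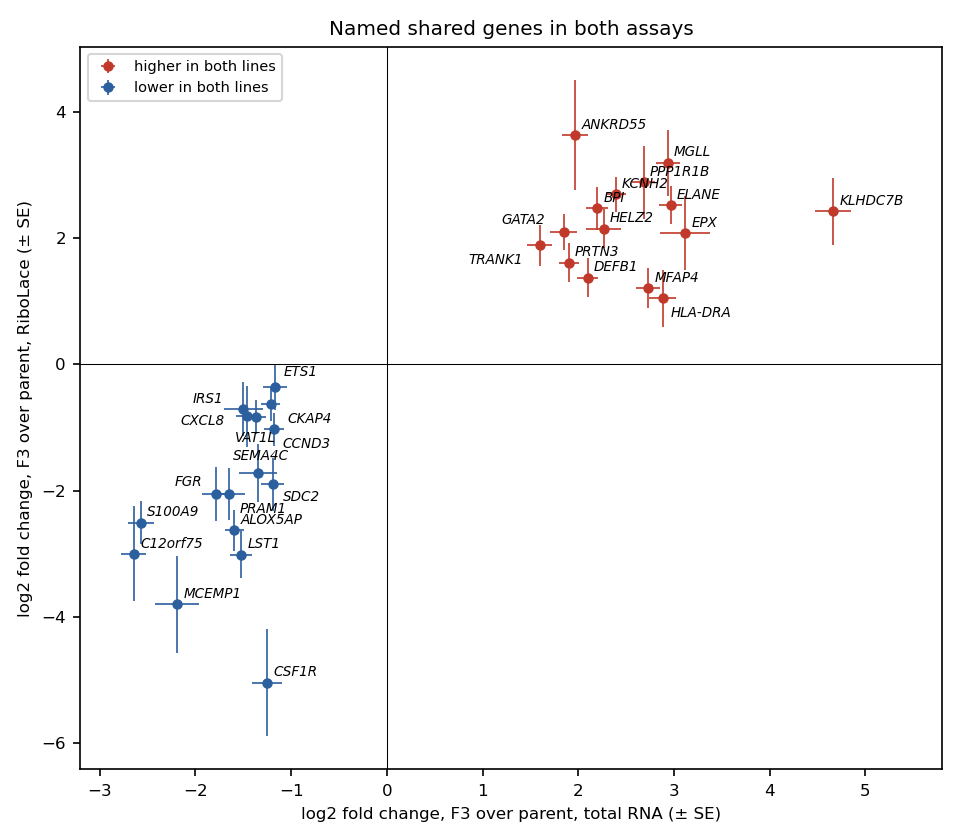
Log2 fold change of F3 over parent in total RNA (horizontal axis) and in RiboLace (vertical axis) for the 31 named shared genes tested in both assays, with bars for the SE of each. The 15 genes higher in both mutant lines (red) lie above 0 on both axes, and the 16 lower ones (blue) below 0.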

How the data were processed

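Total RNA of 4 RUNX1 R174* libraries and 2 parent libraries was analysed, with 4 RiboLace libraries of the F3 and parent lines beside them. The authors deposited raw read counts per gene for both assays. The submitters' processing notes name STAR 2.6.0b, DESeq2 and the build GRCh38, with no role given. The sources used here do not give the strand handling, so overlapping and antisense genes cannot be told apart. Of 58037 gene IDs 57388 matched GENCODE release 29, which gave symbols and coordinates. Depth ran from 19250789 to 21334260 counts per total RNA library.

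Genes passing filterByExpr were scaled by TMM and fitted with edgeR 4.0.16 in R 4.3.3 by the quasi-likelihood test, with Benjamini-Hochberg adjustment over all tested genes and a threshold of 0.05. Standard errors are the log2 fold change divided by the root of F. The pooled fit took F3 and G7 as 1 group, and a second fit took F3, G7 and parent as 3 groups. Scripts were tested on simulated data. Members and gene lists were chosen with earlier results of these data known.

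Named genes were the 20 largest rises and 20 largest falls that were protein-coding, called in the pooled fit and in both lines, free of overlap and at a mean of at least 5 CPM, ranked by the smaller change of the lines. To them came RUNX1 and, from each of 32 lists, the 4 members with the smallest pooled adjusted p, or the 2 of highest level where none passed. Other genes were named from the lists after their values were seen. Alternatives covered RLE and library-total scaling, no filter, DESeq2 1.42.0, limma-voom (limma 3.58.1), restricted gene sets, a 2-fold minimum, a replicate block, other treatments of the lines and each library left out. Leaving chromosome 21 genes out was added after seeing the data. Libraries treated with homoharringtonine were not analysed here. A few list members are not reported here.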

Additional observations from a re-analysis of the deposited data

Results flagged for a closer look

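Among the named genes 3 had a mutant library far from the other 3. BIK was lowest in F3 replicate 2, with a gap to the next library of 0.847 of the whole range of the 4 mutant libraries. CLEC11A was highest in G7 replicate 2 (0.846) and MYB in G7 replicate 3 (0.882). Each is above Dixon's limit for 4 samples. Of 104 genes looked at, these 3 passed it, and chance flags about 1 in 20 groups. Lines differ within these 4 libraries.

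For 34 named genes the size of the effect differed between the lines, by edgeR's test of G7 over F3 at an adjusted p under 0.05. G7 was higher than F3 in 17 of them, with log2 differences of ANKRD55 1.30, BPI 2.89, CCL5 0.43, ELANE 0.98, EPHB2 1.13, EPX 1.80, GATA2 1.24, HHLA2 1.09, KCNH2 0.90, MGLL 1.21, MPO 0.82, MT-ND4L 0.49, MT-ND5 0.41, PPP1R1B 1.12, RUNX1 0.61, S100A9 1.44 and TRANK1 0.49. G7 was lower in 17, with log2 differences of CCND3 -0.37, CKAP4 -0.82, CSF1R -0.57, EPSTI1 -0.76, HLA-DRA -0.88, IFI27 -1.57, IFI44L -1.09, IRF7 -0.81, ITGAX -0.97, KLHDC7B -1.85, LSP1 -0.96, LST1 -0.45, OAS2 -0.51, PLEKHO1 -0.72, RNASE6 -1.19, SDC2 -0.90 and VIM -0.94.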

How the results depend on the processing

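Of 102 recomputed counts 75 were within 1.5 times the value in the report. The pooled count of 636 was 1655 with no filter, 1116 with DESeq2, 222 with a 2-fold minimum, 2846 as the mean of the lines in the fit with 3 groups, 304 with limma-voom and an estimated correlation of 0.226 within a line, 3080 for F3 alone, 2059 for G7 alone, and 43 to 649 with 1 library left out, lowest without parent replicate 1. With a 2-fold minimum the other counts were 483 for F3, 671 for G7, 204 for shared genes and 466 for G7 over F3. At an adjusted p under 0.01 the shared count was 516. With 1 library left out, F3 had 948 to 3250 calls, shared genes 514 to 1155, G7 over F3 847 to 2278, and RiboLace 247 to 1811. RiboLace had 415 calls with DESeq2. The causes were not tested.

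Replicate numbers were not taken as pairing, since the pairs are fewer than 3 and no shared batch is stated. As a check, the mean of each line was first taken from its log2 levels. The deviations left in replicate 2 correlated at 0.217 between F3 and G7 and at 0.0725 between F3 and parent. With the replicate number as a block, edgeR called 0 genes in the pooled reading, with 1342 at an unadjusted p under 0.05, and 3196 for G7 over F3. The block left 1429 shared genes. Replicate 1 was in the parent alone and replicate 3 in the mutant lines alone. With the block, contrasts with the parent therefore rested on parent replicate 2. The blocked counts of 0 and 1429 thus use less of the parent than the main reading.

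Over 1971 recomputed values of 104 named genes 318 lost the pooled call, 144 of them without a parent library and 97 in the block. CLEC11A (-0.07 in the main reading) changed sign to 0.32 in the block, -0.28 to 0.18 with 1 library left out, 0.0026 without F3 replicate 2 and 0.11 for G7 alone. VIM (0.42) changed to -0.12 for G7 alone.

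Each line has 2 libraries, so left-out fits rest on a single library that is assumed to vary like the others. Depth limits the RiboLace values most, where 9805 genes were tested against 13949 in total RNA.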

Other observations

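Chromosome 8 had more shared rises than falls, with 37 genes higher and 6 lower in both lines of 480 tested, and medians of 0.07 in F3 and 0.10 in G7. Over all tested genes the shares were 4.14% and 3.63%. A run of neighbouring genes at positions 213186 to 8386498, which holds DEFB1, had medians of 0.37 in F3 and 0.30 in G7. Runs on chromosomes 1 and 4 reached similar medians, and a part of copy number was not tested. RUNX2 had a RiboLace level far above its total RNA level, at 3867 and 5776 CPM in F3 against 5164 and 3881 CPM in the parent. LYZ, called lower in total RNA of G7 and not of F3, stood at 58.1 and 69.8 CPM in RiboLace of F3 against 533 and 276 CPM in the parent (log2 fold change -2.69 ± 0.32, edgeR adjusted p = 2.07e-06).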
